A study of Mus musculus with 8 samples.

Results

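Genes that mark the epicardium, the mesothelial sheet around the heart, were examined in fetal hearts that lacked type 3 deiodinase. The set held 10 genes (*Wt1*, *Tbx18*, *Tcf21*, *Bnc1*, *Aldh1a2*, *Sema3d*, *Upk3b*, *Upk1b*, *Msln* and *Krt19*), chosen by name from 26590 gene symbols in the table. All 10 were found, under 14 transcript rows, and each had a mean above 1 RPKM (read counts scaled to the length of the transcript and to the mapped reads of the library) in both genotypes, so all 10 were tested. Each gene is described by its most abundant row, averaged over the genotypes, and the other rows of *Wt1*, *Msln* and *Sema3d* are given apart.

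RNA sequencing compared 4 Dio3+/+ hearts with 4 Dio3-/- hearts, each from an individual C57BL/6J fetus, to find what an excess of thyroid hormone changes in the heart before birth. *Dio3* encodes the enzyme that inactivates thyroid hormones, and it was inactivated in the whole fetus, so the placenta and the other fetal tissues lacked it too. The sample titles place all 8 hearts at E13.5, the field for age reads E18.5 for the hearts numbered 3 and 4 of the Dio3-/- group, and the study's methods give another day, so the age of these hearts is not settled. The table held the authors' mean and coefficient of variation (CV, the SD divided by the mean) for each genotype and no value for a single heart, so hearts 3 and 4 could not be left out, no heart could be shown apart from the others, overlap between genotypes could not be read, and the depth of each library is unknown. The *Dio3* transcript itself had means of 0.35 RPKM in Dio3+/+ (CV 1.23) and 0.13 RPKM in Dio3-/- hearts (CV 0.76), too low to check the genotype labels. The design text calls these hearts male, and *Xist*, which is transcribed from the silenced X chromosome in females, had means of 35.6 RPKM (CV 0.99) and 40.0 RPKM (CV 0.55). *Eif2s3y*, a gene of the Y chromosome, had means of 9.38 RPKM (CV 1.04) and 7.29 RPKM (CV 1.46). Both transcripts were present in each genotype, so the values do not bear out male for all hearts. The sex of a single heart could not be read, and sex was not part of the test.

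The epicardium grows over the surface of the myocardium from the proepicardium, a cluster of cells near the inflow of the heart. Some of its cells lose their epithelial character and enter the heart wall, where they give rise to fibroblasts and to the mural cells of coronary vessels. Its signals, among them retinoic acid, are needed for growth of the compact myocardium. The same genes also mark the mesothelium of lung, liver and body wall. In whole hearts the transcripts thus measure the amount of mesothelium, and of any other cells that carry them, in the dissected tissue together with the level per cell. Fewer cells of a type and less RNA per cell cannot be told apart in these libraries.

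The epicardial genes were present at moderate levels and stood in almost the same order in both genotypes. *Upk3b*, which encodes a uroplakin of mesothelial and urothelial membranes, was the highest, with a mean of 31.4 RPKM (CV 0.07) in the Dio3+/+ group and 32.1 RPKM (CV 0.08) in the Dio3-/- group. *Msln*, which encodes the surface protein mesothelin, was the lowest, with 5.23 RPKM (CV 0.24) and 4.98 RPKM (CV 0.15). RPKM is a level per transcript length, so the genes can be set against each other. By mean level, *Upk3b* was above 83.8% and *Msln* above 31.3% of the 14657 tested genes. *Upk3b* stood above *Krt19*, *Aldh1a2* above *Sema3d*, *Sema3d* above *Upk1b* and *Upk1b* above *Bnc1* by more than the sum of the SDs of both genes in each genotype. The neighbours *Krt19*, *Tbx18*, *Wt1*, *Tcf21* and *Aldh1a2* were not separated in this way in both genotypes, nor were *Bnc1* and *Msln*. *Wt1* was number 5 of the 10 in Dio3+/+ and number 3 in Dio3-/- hearts, within that unseparated group.

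**Figure D1:**
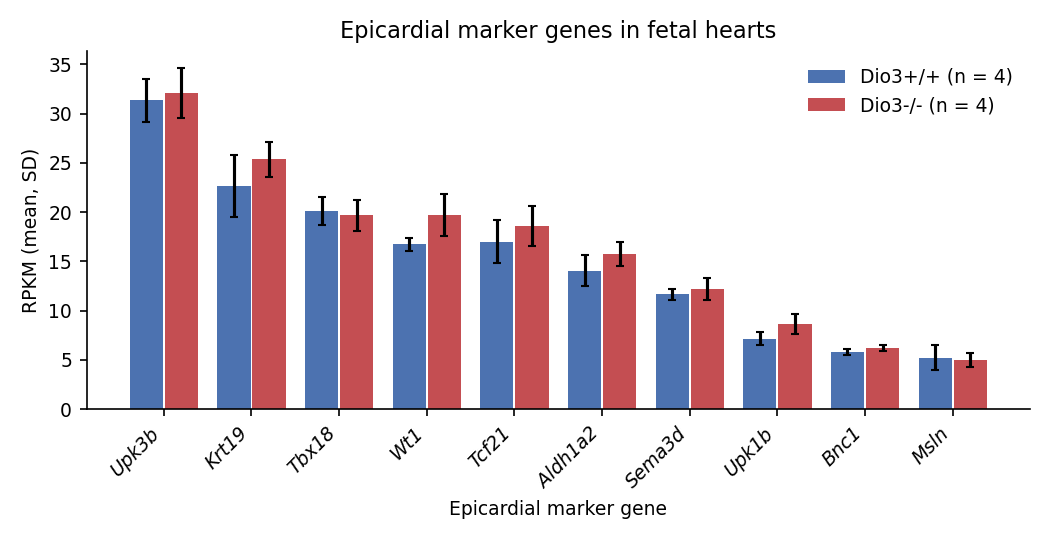
Mean level in RPKM (vertical axis, from 0) of the 10 epicardial marker genes (horizontal axis) in 4 Dio3+/+ and 4 Dio3-/- hearts, with bars for the authors' means and error bars for 1 SD, calculated as the mean times the coefficient of variation. The levels ran from 31.4 and 32.1 RPKM for *Upk3b* to 5.23 and 4.98 RPKM for *Msln*, and the bars of the genotypes lay close together for each gene.

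None of the 10 epicardial genes passed the test between genotypes (limma adjusted *P* value under 0.05), in any of their 14 rows. Over all tested genes, 2.59% had a row that passed (379 of 14657). Before adjustment, 2 of the 10 genes, *Wt1* and *Upk1b*, had a *P* value under 0.05 by limma in the row used, and 19.7% of all tested genes did. Welch's test on the same means and CVs called 0 of the 10 after adjustment and gave 0 an unadjusted *P* value under 0.05, against 0.218% and 16.4% of all tested genes. Adjusted *P* values of the 10 genes by limma ran from 0.138 to 0.868. The mean was higher in Dio3-/- hearts for 8 genes and lower for *Tbx18* and *Msln*, where 63.3% of all tested genes were higher. *Upk3b* changed sign when the median difference of all tested rows, 0.04 on the log2 scale, was taken as the zero. The median log2 fold change of the 10 genes was 0.12, beside 0.04 over all tested genes. The sum of their 10 means was 152 RPKM in the Dio3+/+ group and 163 RPKM in the Dio3-/- group, a ratio of 1.08. Over all tested genes the same sums were 626863 and 581951 RPKM, a ratio of 0.93.

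**Figure D2:**
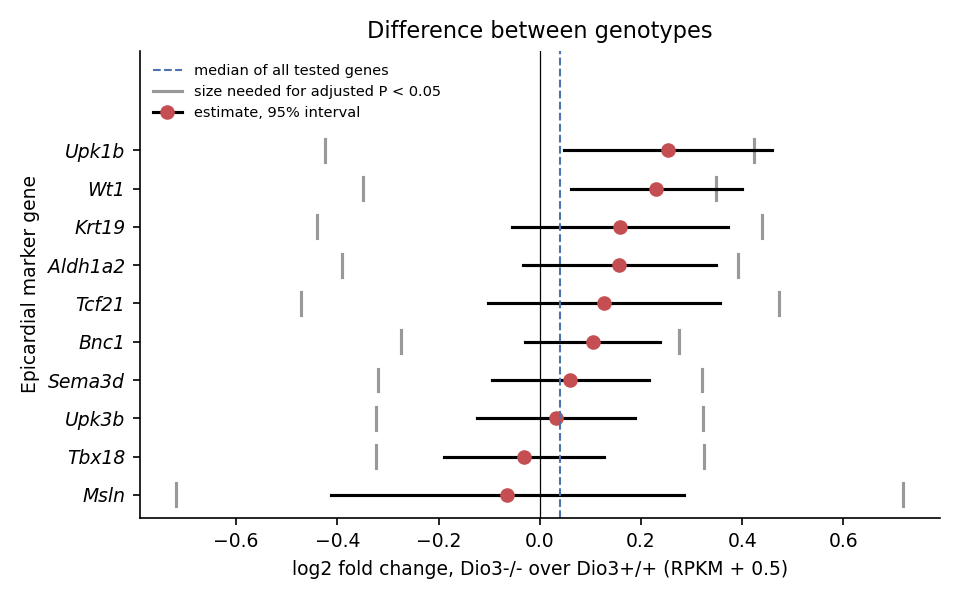
Log2 fold change of each epicardial marker gene (Dio3-/- over Dio3+/+, on the RPKM + 0.5 scale; points) with its 95% interval (black lines), the size that the same standard error would have needed for a limma adjusted *P* value under 0.05 (grey ticks) and the median of all tested genes (dashed line). Every point lies between its grey ticks, and the intervals of *Upk1b* and *Wt1* lie above 0.

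The transcription factors of the epicardium had CVs of 0.13 or lower, beside medians of 0.09 in Dio3+/+ and 0.06 in Dio3-/- hearts over all tested genes. *Wt1* encodes a zinc finger factor that epicardial cells need to survive and to form mesenchyme. Its means were 16.7 RPKM (CV 0.04) in the Dio3+/+ group and 19.7 RPKM (CV 0.11) in the Dio3-/- group, giving a log2 fold change of 0.23 (95% interval 0.06 to 0.40, limma adjusted *P* = 0.138). This was the only one of the 10 genes whose means differed by more than the sum of both SDs, and 92.7% of tested genes had a lower log2 fold change. *Tbx18*, a T-box repressor present from the proepicardium on, had 20.1 RPKM (CV 0.07) and 19.7 RPKM (CV 0.08), giving a log2 fold change of −0.03 (−0.19 to 0.13, limma adjusted *P* = 0.859). In GENCODE vM21, 970 exonic bases of *Tbx18* are shared with D030062O11Rik on the opposite strand, and the sources used here do not state whether reads were counted by strand.

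*Tcf21* encodes a basic helix-loop-helix factor that epicardial cells need to become cardiac fibroblasts. It had means of 17.0 RPKM (CV 0.13) in the Dio3+/+ group and 18.6 RPKM (CV 0.11) in the Dio3-/- group, and its log2 fold change was 0.13 (−0.10 to 0.36, limma adjusted *P* = 0.555). The means differed by less than the larger SD. *Bnc1*, which encodes the zinc finger protein basonuclin 1 of epithelia and mesothelia, had 5.77 RPKM and 6.24 RPKM, both with a CV of 0.05, and a log2 fold change of 0.10 (−0.03 to 0.24, limma adjusted *P* = 0.391). Its exons share 98 bases with the pseudogene 4833418N17Rik on the opposite strand.

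*Aldh1a2* encodes the enzyme that makes most of the retinoic acid of the epicardium. Its means were 14.1 RPKM (CV 0.11) in the Dio3+/+ group and 15.7 RPKM (CV 0.08) in the Dio3-/- group, giving a log2 fold change of 0.16 (−0.03 to 0.35, limma adjusted *P* = 0.361). The gap between the means was larger than either SD but not larger than their sum. *Sema3d*, a secreted semaphorin that guides cells and vessels, had 11.7 RPKM (CV 0.05) and 12.2 RPKM (CV 0.09) in the row used, giving a log2 fold change of 0.06 (−0.10 to 0.22, limma adjusted *P* = 0.696). Of the semaphorin receptors, *Nrp1* and *Plxnd1* had log2 fold changes of 0.10 and 0.11 and adjusted *P* values of 0.381 and 0.271 by limma. *Nrp2*, the other neuropilin, had 8.10 RPKM (CV 0.58) and 5.73 RPKM (CV 0.07), with a log2 fold change of −0.47 (limma adjusted *P* = 0.481).

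Among the surface and cytoskeletal genes, *Upk1b*, a tetraspanin partner of the uroplakins, had the highest log2 fold change of the 10 genes. Its means were 7.16 RPKM (CV 0.09) in the Dio3+/+ group and 8.63 RPKM (CV 0.12) in the Dio3-/- group, giving a log2 fold change of 0.25 (0.05 to 0.46, limma adjusted *P* = 0.174), and 94.3% of tested genes had a lower one. *Upk3b* had a log2 fold change of 0.03 (−0.12 to 0.19, limma adjusted *P* = 0.853). The genes of both uroplakins mark the same cells, and whether their log2 fold changes differed from each other was not tested, because that needs values of single hearts. *Krt19*, a keratin of simple epithelia, had 22.7 RPKM (CV 0.14) and 25.3 RPKM (CV 0.07), giving a log2 fold change of 0.16 (−0.05 to 0.37, limma adjusted *P* = 0.417). *Msln* had the widest spread of the 10 genes and a log2 fold change of −0.06 (−0.41 to 0.28, limma adjusted *P* = 0.868). The uroplakin genes *Upk1a*, *Upk3a* and *Upk2* were near 0. In Dio3+/+ and Dio3-/- hearts *Upk1a* had 0.24 and 0.27 RPKM and *Upk3a* 0.02 and 0.04 RPKM. *Upk2* was listed at 0 in Dio3+/+ and had 0.03 RPKM in Dio3-/- hearts.

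Where a gene had several rows, they gave similar differences. The second row of *Wt1* had means of 14.9 RPKM and 17.6 RPKM and a log2 fold change of 0.23 (limma adjusted *P* = 0.122), and the second row of *Msln* one of −0.06. The other rows of *Sema3d* had log2 fold changes of 0.14 (limma adjusted *P* = 0.288) and 0.04, and lay at 7.72 and 7.16 RPKM in Dio3+/+ hearts, below the 11.7 RPKM of the row used. Rows of a gene share reads and are not separate evidence.

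Promoter sequences from RefSeq (GRCm38.p6) were matched for 6 of the 10 genes (*Tbx18*, *Tcf21*, *Bnc1*, *Aldh1a2*, *Sema3d* and *Upk3b*), and the 250 bases before the start were searched on both strands for 3 motifs. These were AGGTCA, the half-site of thyroid hormone and retinoic acid receptors, GGAATG, the core of TEAD sites, and AGATAA, bound by factors of the GATA family. The letters AGGTCA were in 1 of the 6 windows and in 14.0% of 32851 windows of the same length, GGAATG in 1 of 6 and 12.6%, and AGATAA in 1 of 6 and 9.99%. The windows that held a motif were those of *Upk3b*, the highest gene, at chr5:136038246-136038495 (plus strand) and of *Tcf21* at chr10:22820144-22820393 (minus strand). They are shown 5′ to 3′ on the strand of the gene, with the motifs in capitals (the TEAD core of *Upk3b* reads on the other strand).
Upk3b: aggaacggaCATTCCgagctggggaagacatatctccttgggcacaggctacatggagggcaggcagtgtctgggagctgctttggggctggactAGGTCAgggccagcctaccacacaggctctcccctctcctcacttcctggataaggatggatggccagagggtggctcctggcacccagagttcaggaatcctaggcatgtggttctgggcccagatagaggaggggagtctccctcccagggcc
Tcf21: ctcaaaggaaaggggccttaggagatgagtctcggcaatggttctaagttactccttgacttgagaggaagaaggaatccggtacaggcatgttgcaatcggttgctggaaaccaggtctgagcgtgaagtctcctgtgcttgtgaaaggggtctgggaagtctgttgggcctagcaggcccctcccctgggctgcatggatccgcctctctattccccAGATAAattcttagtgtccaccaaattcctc
The AGGTCA of *Upk3b* began 155 bases before the start. Any relation between motifs and differences was not tested, and *Wt1* and *Upk1b* were among the genes without a window. A match of letters is a description of the sequence and not a binding site.

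The size of change that these data could resolve was set by the spread between hearts. At the standard error of each gene, a limma adjusted *P* value under 0.05 would have needed a fold change of 1.21 for *Bnc1*, 1.27 for *Wt1* and 1.65 for *Msln*, the extremes of the 10 being *Bnc1* and *Msln*. Genes that did pass had a median fold change of 1.34 in either direction in their highest row, and for 6 of the 10 epicardial genes a change of that size would have been large enough to pass. The 95% intervals of all 10 genes, which are not adjusted for the number of genes, lay between fold changes of 0.751 (*Msln*) and 1.37 (*Upk1b*).

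None of the other genes of epicardium and mesothelium passed either. Of 16 such genes, 13 were above 1 RPKM and 0 passed, beside 2.59% of all tested genes. An unadjusted *P* value under 0.05 by limma was found for 2 of the 13, beside 19.7% of all tested genes, and the median log2 fold change was 0.02. *Lrrn4* and *Gpm6a*, membrane proteins of mesothelium, had log2 fold changes of 0.05 (8.88 and 9.21 RPKM) and 0.02 (6.73 and 6.85 RPKM). *Podxl*, which encodes podocalyxin, a surface sialomucin that endothelium carries too, had 25.4 RPKM (CV 0.06) and 30.8 RPKM (CV 0.08), giving a log2 fold change of 0.27 (limma adjusted *P* = 0.068). *Pdpn*, which encodes the surface mucoprotein podoplanin, had 13.3 RPKM (CV 0.18) and 11.5 RPKM (CV 0.07), with a log2 fold change of −0.21 (limma adjusted *P* = 0.365). *Efemp1*, an extracellular matrix glycoprotein, had 6.43 RPKM (CV 0.19) and 4.69 RPKM (CV 0.10), giving a log2 fold change of −0.42 (limma adjusted *P* = 0.105). *Muc16*, which encodes the mucin that mesothelin binds, had 0.88 RPKM in both genotypes and was not tested.

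In the retinoic acid pathway around *Aldh1a2*, 1 of 14 tested genes passed, beside 2.59% of all tested genes, and it was a second enzyme of retinoic acid synthesis. Before adjustment 4 of the 14 had a *P* value under 0.05 by limma, beside 19.7% of all tested genes. *Aldh1a1* rose from 1.21 RPKM (CV 0.07) in Dio3+/+ to 1.84 RPKM (CV 0.12) in Dio3-/- hearts, giving a log2 fold change of 0.45 (limma adjusted *P* = 0.048). Of the 9 alternatives in which it could be tested, 5 took it past the threshold, with adjusted *P* values up to 0.168 with Welch's test. Of the receptors, *Rara* and *Rarb* had log2 fold changes of 0.00 and 0.01 and *Rarg* one of −0.43, with a CV of 0.67 in Dio3+/+ hearts. *Crabp1*, a carrier protein for retinoic acid, had 13.6 RPKM (CV 0.76) and 5.85 RPKM (CV 0.16), with a log2 fold change of −1.15 (limma adjusted *P* = 0.188). *Crabp2*, its relative, had 6.46 RPKM (CV 1.36) and 1.38 RPKM (CV 0.44), with a log2 fold change of −1.89 (limma adjusted *P* = 0.211). *Rdh10*, which oxidises retinol, and *Cyp26b1*, which breaks retinoic acid down, had log2 fold changes of −0.44 and −0.19. The median log2 fold change of the 14 genes was −0.13, and 6 of them had a CV above 0.5 in Dio3+/+ hearts. Among these, *Aldh1a3* and *Stra6* exceeded 1 RPKM in Dio3+/+ hearts only.

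Genes of the epithelial-mesenchymal transition and of the mesenchyme it gives did not pass, with 0 of 21 tested at an adjusted and 0 at an unadjusted *P* value under 0.05 by limma, beside 2.59% and 19.7% of all tested genes. Their median log2 fold change was −0.04. *Snai2* and *Twist1*, factors that repress epithelial genes, had log2 fold changes of −0.17 and −0.40 (limma adjusted *P* = 0.797 and 0.504), with CVs of 0.46 and 0.51 in Dio3+/+ hearts. *Tgfbr3*, a coreceptor that epicardial cells use during invasion, had 19.1 RPKM and 20.2 RPKM with a CV of 0.04 in both, giving a log2 fold change of 0.08. *Vim*, which encodes vimentin, had 636 and 637 RPKM, and *Ctnnb1*, which encodes beta-catenin, had 200.4 and 199.6 RPKM. Of the signals between epicardium and myocardium and their receptors, 0 of 16 tested genes passed, with 2, *Igf2* and *Insr*, at an unadjusted *P* value under 0.05 by limma (2.59% and 19.7% of all tested genes). *Igf2*, a growth factor of the fetal heart, had 2131 RPKM (CV 0.05) and 1874 RPKM (CV 0.03), giving a log2 fold change of −0.19 (limma adjusted *P* = 0.159). *Tmsb4x*, which encodes thymosin beta 4, had 806 and 777 RPKM, with a log2 fold change of −0.05. *Fgf9* had 2.87 and 2.71 RPKM, and *Itga4* and *Vcam1*, the integrin chain and the ligand that hold epicardium to myocardium, had log2 fold changes of 0.10 and −0.09.

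**Figure D3:**
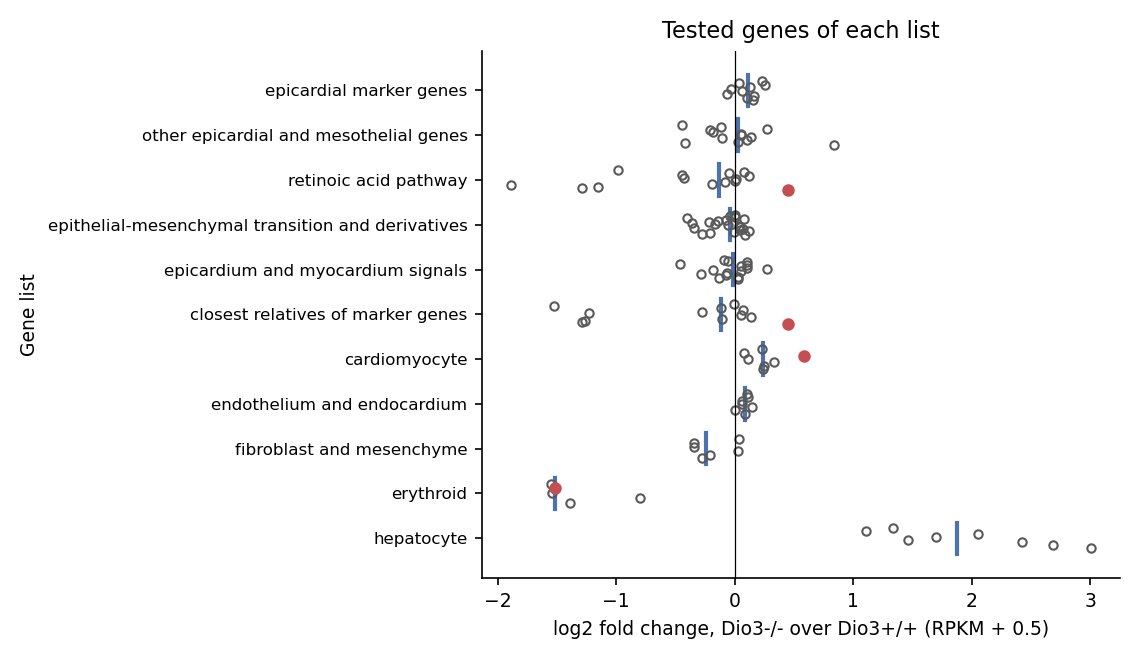
Log2 fold change (horizontal axis, Dio3-/- over Dio3+/+ on the RPKM + 0.5 scale) of each tested gene in the lists around the epicardium and in marker lists of other cells (vertical axis), with filled points for a limma adjusted *P* value under 0.05 and bars for the median of a list. The epicardial genes lie within −0.06 to 0.25, and the erythroid and hepatocyte lists lie apart, with medians of −1.51 and 1.88.

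Markers of the other cells of the heart are given for reference. Over all tested genes, 63.3% had a higher mean in Dio3-/- hearts, 19.7% had an unadjusted *P* value under 0.05 by limma and 2.59% passed. The median log2 fold change was 0.24 over 7 cardiomyocyte genes, of which 7 had a higher mean in Dio3-/- hearts, 5 had an unadjusted *P* value under 0.05 by limma and only *Ryr2*, the calcium release channel, passed (0.59, limma adjusted *P* = 0.023, and 0.125 with Welch's test). It was 0.09 over 7 endothelial and endocardial genes and −0.24 over 6 genes of fibroblasts and mesenchyme, of which none passed, with 1 of the 7 and 0 of the 6 at an unadjusted *P* value under 0.05 by limma. The genes at the highest level in these lists did not pass. *Actc1* and *Tnnt2* of the sarcomere had log2 fold changes of 0.24 and 0.08, *Cdh5* and *Pecam1* of endothelial junctions 0.09 and 0.11, and the collagens *Col3a1* and *Col1a1* −0.21 and −0.28. The collagens had CVs of 0.39 and 0.42 in Dio3+/+ hearts. Over the fibroblast and mesenchyme list the median CV was 0.405 in Dio3+/+ and 0.045 in Dio3-/- hearts. Of its 6 genes, 4 had a lower and 2 a higher mean in Dio3-/- hearts. The 5 red cell genes that were found had a lower summed mean in Dio3-/- hearts (37087 RPKM in Dio3+/+ against 12662 RPKM). Most of that sum was *Hbb-y* (29101 and 9909 RPKM), and *Hba-a1*, also on the list, was not found. Of the 5 tested, 5 had an unadjusted *P* value under 0.05 by limma, and *Hbb-bh1* passed (limma adjusted *P* = 0.047). *Hbb-y* and *Hba-x*, the globin genes at the highest level, had log2 fold changes of −1.55 and −1.55 (limma adjusted *P* = 0.075 and 0.062). Their CVs were 0.29 and 0.27 in Dio3+/+ hearts and 0.61 and 0.57 in Dio3-/- hearts. The age field of 2 Dio3-/- hearts is unsettled, and the part of age in these values was not tested. The call of *Hbb-bh1* was lost in 5 of 10 alternatives, with an adjusted *P* value of 0.212 with Welch's test. RPKM is scaled to the mapped reads of the library, so a change in abundant transcripts can shift the values of other genes. The share of reads from red cell transcripts was not calculated, and their part in the small differences of the epicardial genes was not tested.

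Tissue beside the heart carries mesothelium too, so its markers were read beside the epicardial genes. The 8 hepatocyte markers, all above 0, summed to 22.9 RPKM in the Dio3+/+ group and 123 RPKM in the Dio3-/- group, with CVs from 0.68 to 1.26 in Dio3-/- hearts. Of the 8, 8 had an unadjusted *P* value under 0.05 by limma and 0 passed after adjustment, beside 19.7% and 2.59% of all tested genes. *Ttr* (0.65 and 2.41 RPKM) and *Fgb* (0.32 and 2.17 RPKM) exceeded 1 RPKM in Dio3-/- hearts only. The filter thus let these genes in through the group where they were higher. *Afp*, which encodes alpha-fetoprotein, had 5.11 and 44.6 RPKM, and *Alb*, which encodes albumin, 5.16 and 36.1 RPKM. Of the lung markers *Sftpc* was listed at 0 in Dio3+/+ and had 0.26 RPKM in Dio3-/- hearts, *Sftpb* had 0.02 and 0.14 RPKM and *Epcam* 0.78 and 0.95 RPKM. *Foxa2* had 0.21 and 0.39 RPKM, *Cdh1* 0.65 and 0.64 RPKM and *Nkx2-1*, the only one tested, 8.18 and 8.35 RPKM. Apart from *Nkx2-1* (CV 0.20), the CVs of the lung markers in Dio3-/- hearts ran from 0.97 (*Sftpb*) to 1.47 (*Sftpc*). The part of such tissue in the levels of the epicardial genes was not tested. The CVs of the 10 epicardial genes were between 0.04 and 0.24 in Dio3+/+ and between 0.05 and 0.15 in Dio3-/- hearts.

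Some of the nearest relatives of the epicardial genes had a wide spread between hearts. Of 12 tested relatives, 4 had a CV above 0.5 in Dio3+/+ hearts, namely *Tbx15*, *Bnc2*, *Msc* and *Aldh1a3*. This held for 0 of the 10 epicardial genes and for 2.65% of all tested genes. These 4 relatives exceeded 1 RPKM in Dio3+/+ hearts only, where few hearts with a high level can lift a mean over the filter. The 10 epicardial genes exceeded 1 RPKM in both genotypes, so the counts are not of like genes. *Sema3a* and *Krt7*, the relatives at the highest level, had log2 fold changes of −0.27 and 0.14 and did not pass. *Tbx15*, the closest T-box relative of *Tbx18*, had 1.20 RPKM (CV 1.46) in the Dio3+/+ group and 0.09 RPKM (CV 0.33) in the Dio3-/- group. *Bnc2*, the paralog of *Bnc1*, had 3.00 RPKM (CV 1.24) and 0.96 RPKM (CV 0.42), and *Aldh1a3*, the paralog of *Aldh1a2*, 1.24 RPKM (CV 1.54) and 0.21 RPKM (CV 0.27). With 4 hearts a CV cannot exceed 2, the value reached when a single heart holds all reads, so these means rest mainly on few Dio3+/+ hearts. Their adjusted *P* values by limma were 0.209 for *Tbx15*, 0.326 for *Bnc2* and 0.318 for *Aldh1a3*.

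**Figure D4:**
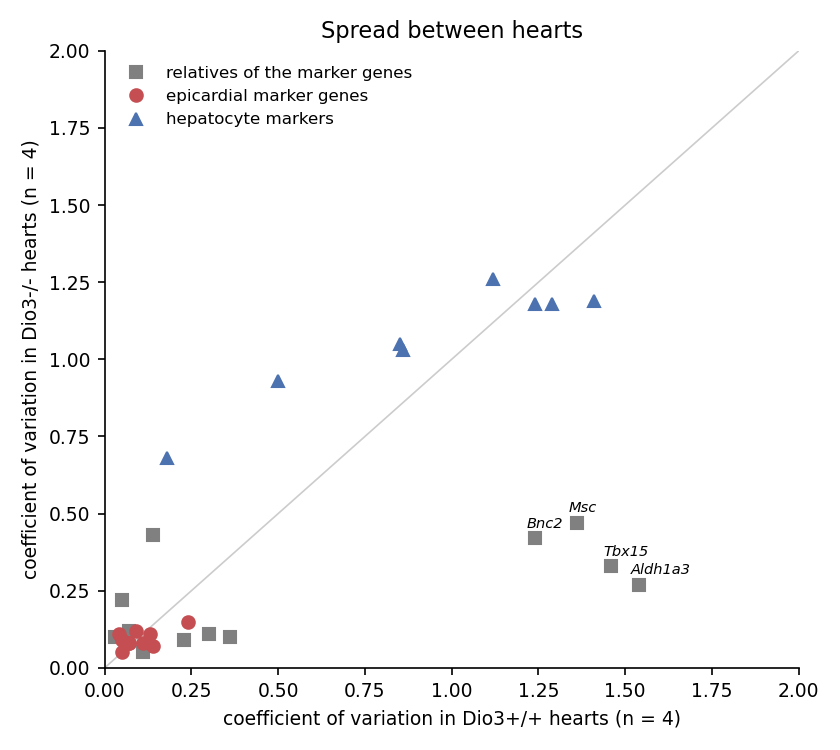
Coefficient of variation between the 4 hearts of a genotype (horizontal axis Dio3+/+, vertical axis Dio3-/-) for the epicardial marker genes (circles), their relatives (squares) and hepatocyte markers (triangles), with a line at equal values. The epicardial genes lie at or below 0.24 on both axes, *Tbx15*, *Bnc2*, *Msc* and *Aldh1a3* lie above 1 in Dio3+/+ hearts only, and the hepatocyte markers lie at 0.68 or higher in Dio3-/- hearts.

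The spread of the epicardial genes between hearts was close to that of other genes. Their median CV was 0.08 in Dio3+/+ and 0.085 in Dio3-/- hearts, beside 0.09 and 0.06 over all tested genes. The CV was lower in Dio3-/- than in Dio3+/+ hearts for 4 of the 10 genes and for 65.4% of all tested genes. The differences in CV were not tested.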

How the data were processed

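Total RNA of whole fetal hearts was sequenced after removal of ribosomal RNA. Per the labels and the study's methods, reads were aligned with NovoAlign (version 2.08), only reads with a unique place were kept and all samples were scaled down in proportion to the smallest library. The genome build is not given in the sources used here, and rows carry UCSC transcript identifiers. For each genotype the authors deposited a mean, taken here to be RPKM because the methods filter on that unit. The header does not name it, and the means times transcript length in kb summed to 539552 in Dio3+/+ and 523945 in Dio3-/- hearts over 19414 genes, the order of size that RPKM would give. The authors also deposited the coefficient of variation, a ratio of SD to mean, rounded to 2 decimals, and the columns of their own comparison (fold change, *q* value and flags), which were not used.

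Both means of a row were put on the log2(RPKM + 0.5) scale, with the SD from the coefficient of variation by the delta method. In R (version 4.3.3), limma (version 3.58.1) shrank the pooled variance (6 residual degrees of freedom) towards a trend on the mean level (3.52 prior degrees of freedom). The Benjamini-Hochberg adjustment covered 32703 rows in which either genotype exceeded 1 RPKM. A fold change on this scale understates the change of low genes, and whether hearts shared a litter is not stated. A single passing row was enough for a gene to count as changed. The test was checked on simulated data. The 10 genes and all lists were chosen with earlier results of these data known. The rule for named genes took the 10, the genes of each list that passed and the 2 with the highest means in each list, and some items are not reported here. All other genes of the lists that are named (such as *Efemp1*, *Crabp1*, *Twist1*, *Fgf9*, *Muc16* and the relatives with a wide spread) were chosen after their values were seen. Alternatives were pseudocounts of 0.1 and 1, other expression filters, no trend, 1 row per gene, Welch's test on the RPKM means, centring, and changes to the coefficients of variation. Promoter windows came from RefSeq and overlaps from GENCODE vM21, handled in Python (version 3.11.15) with pandas (version 2.3.3).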

Additional observations from a re-analysis of the deposited data

How the results depend on the processing

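None of the 10 epicardial genes had an adjusted *P* value under 0.05 in any of the 10 alternatives run across the table, by limma or by Welch's test. Of 104 log2 fold changes of these genes under the alternatives, other rows of a gene included, 103 kept their direction and stayed on the same side of the threshold. The exception was *Upk3b*, which went from 0.03 to −0.0056 when the median difference of all rows was taken as the zero. Only centring or another row of the gene could change a direction. The other alternatives leave the sign as it is, so the count of kept directions says little about stability. The lowest adjusted *P* value of any of the 10 genes under an alternative was 0.112, for *Wt1*. The number of genes that passed over the whole table was 379 and less stable. It was 221 without an expression filter, 197 with centring, 206 with each coefficient of variation raised by its largest rounding error of 0.005, and 32 with Welch's test. In the other alternatives it was from 300 to 555. No paired analysis was possible because the table holds genotype means and no values of single hearts, and for the same reason leaving out each heart in turn was not run. The rounding of the coefficients of variation, the use of logs of means and the unknown depth limit the precision of all intervals.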

Other observations

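A pair of genes fixed as markers of other organs stood above other markers of those organs. *Nphs1*, which encodes nephrin of kidney podocytes, had means of 5.68 RPKM (CV 0.09) in Dio3+/+ and 5.76 RPKM (CV 0.11) in Dio3-/- hearts, while *Pax2*, *Pax8* and *Nr5a1*, also markers of kidney and gonad, were at or below 0.03 RPKM in both genotypes. In GENCODE vM21, 597 exonic bases of *Nphs1* are shared with the antisense gene Nphs1os and 183 with the pseudogene Rps12-ps4, both on the opposite strand. *Nkx2-1*, a factor of lung and thyroid, had 8.18 RPKM (CV 0.16) and 8.35 RPKM (CV 0.20), while the other 5 markers of lung epithelium were below 1 RPKM. Neither gene passed, with limma adjusted *P* values of 0.937 (*Nphs1*) and 0.943 (*Nkx2-1*).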
